A study of Mus musculus with 16 samples.

Results

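The genes that take up carotenoids and process vitamin A were examined as a group of 10, chosen by symbol for their roles: *Scarb1*, *Bco1*, *Isx*, *Rbp2*, *Lrat*, *Rdh7*, *Dhrs3*, *Aldh1a2*, *Aldh1a3* and *Rarb*. They are 10 of the 21965 genes in the count table, and all 10 were among the 13811 genes that passed the filter on low counts. RNA came from a segment of the terminal ileum, sampled as whole tissue, of 16 male C57BL/6 littermates, sequenced as a library of its own for each mouse. The mice were 8 to 10 weeks old when the diets began. The WT mice were 4 fed the PF diet (WT PF) and 3 fed EtOH (WT EtOH), and the fat-1 mice were 4 fed the PF diet (fat-1 PF) and 5 fed EtOH (fat-1 EtOH). EtOH-fed mice received a Lieber-DeCarli liquid diet in which EtOH was raised in steps to 6% (v/v), a level held for the last 3 weeks, and PF mice received the same diet with isocaloric maltose dextrin in place of EtOH. The fat-1 mice, labelled Fat1+/-, were heterozygous for a *C. elegans* n3 desaturase transgene that is expressed in all tissues and converts n6 into n3 PUFAs, and the mouse gene *Fat1* is a different gene. The transgene was not analysed here, so that the genotype was taken from the labels.

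Dietary carotenoids enter the enterocyte through the scavenger receptor SR-B1, encoded by *Scarb1*, and BCO1 cuts beta-carotene into retinal. Retinal is reduced to retinol, held by the cellular retinol-binding protein CRBP2, encoded by *Rbp2*, esterified by LRAT and packed into chylomicrons, a task carried out mainly in the proximal small intestine. In the other direction, retinol dehydrogenases and retinaldehyde dehydrogenases turn retinol into retinoic acid, which acts through the retinoic acid receptors. The homeobox protein ISX closes a loop, since retinoic acid induces it and it lowers *Scarb1* and *Bco1*.

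RefSeq promoters (build GRCm38.p6) were at hand for 8 of the 10 members. The 250 bases before each start were searched on both strands for AGATAA, the GATA factor motif, TTTATG, the CDX motif, TAATTA, a homeobox core, and AGGTCA, the nuclear receptor half-site, alone or as direct repeats with 1, 2 or 5 bases between them. The repeat of GTTCA with 6 bases between, the type of the retinoic acid response element of *Rarb*, was added after the *Rarb* promoter had been seen. Of 32851 promoters, 9.99% held the GATA motif, 10.8% the CDX motif, 4.84% the homeobox core and 14% the half-site, which is also part of each AGGTCA repeat. The repeat with 1 base between, DR1, was in 0.0335% of promoters and the GTTCA repeat in 0.067%. DR2 and DR5 of AGGTCA were each in 0.00913% and in no member. Shown are the promoter of *Rbp2*, the member with the largest difference between diets, at chr9:98490287-98490536 on the + strand, and that of *Bco1*, the only one of the 8 with a DR1, at chr8:117095615-117095853 on the + strand, without 11 bases that lie in an exon of another *Bco1* transcript. Capitals mark matches to the motifs on either strand.
Rbp2 promoter: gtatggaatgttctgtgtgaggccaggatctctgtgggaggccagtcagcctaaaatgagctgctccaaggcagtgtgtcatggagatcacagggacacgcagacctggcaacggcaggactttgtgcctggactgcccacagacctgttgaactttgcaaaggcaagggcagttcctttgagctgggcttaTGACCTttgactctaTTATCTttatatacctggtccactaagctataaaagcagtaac
Bco1 promoter: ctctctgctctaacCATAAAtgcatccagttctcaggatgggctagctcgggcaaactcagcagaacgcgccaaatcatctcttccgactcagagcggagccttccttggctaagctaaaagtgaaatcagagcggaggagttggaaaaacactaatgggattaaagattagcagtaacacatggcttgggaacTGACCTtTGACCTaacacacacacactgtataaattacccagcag
The *Rbp2* window held TTATCT, the GATA motif on the opposite strand, 43 to 38 bases before the start, and TGACCT, the half-site on the opposite strand, 58 to 53 bases before it. In the *Bco1* window, the DR1 stood 56 to 44 bases before the start on the opposite strand and a CDX match 236 to 231 bases before it. All 250 bases of the *Rarb* window lie in annotated exons, of *Rarb* or of *Gm48162* on the opposite strand. The *Rarb* window, of which 30 bases at chr14:16575506-16575535 on the - strand are shown, held the GTTCA repeat 52 to 37 bases before the start, and capitals mark both copies.
Rarb element: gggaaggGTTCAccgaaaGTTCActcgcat
The windows of *Isx*, *Lrat*, *Dhrs3* and *Aldh1a2* held none of these motifs. *Rdh7* had 2 listed promoters, and 1 of them held a CDX match and a half-site. A match describes the letters of the window and was not tested as a binding site.

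The counted reads per library numbered from 8422645 to 11438539, which puts 3 counts at 0.246 to 0.421 CPM, the count relative to the library size. Levels of single mice are CPM scaled with the trimmed mean of M-values (TMM). Some libraries stood apart by region markers, and this is given first because several results rest on them. The summed level of 17 measured markers of the proximal small intestine lay between 6494 and 69730 CPM in PF mice, with the highest sums, 69730 and 67490 CPM, in fat-1 PF mice 2 and 4, and between 680 and 4181 CPM in EtOH mice, so that the diets did not overlap. With EtOH, 15 of these 17 were called lower and 1 higher in the mean over both genotypes, with a median log2 fold change of -4.50. Of all genes, 35.9% were called in that comparison. The marker lists were chosen with earlier results of these data known, so that counts of called markers are a description and no test. *Gata4*, which marks the proximal gut, was at 0 in fat-1 EtOH mouse 3, and *Onecut2* and *Slc23a1* were at 0 in fat-1 EtOH mouse 4. The summed level of 11 large intestine markers was 12490 and 13530 CPM in fat-1 EtOH mice 3 and 4 and 5254 CPM in WT EtOH mouse 2, against 213 to 565 CPM in the other 13 mice. These 5 libraries, fat-1 PF mice 2 and 4, fat-1 EtOH mice 3 and 4 and WT EtOH mouse 2, are those that stand apart in what follows. Among these markers *Aqp8* was at 0 in 7 libraries and *Hoxd13* in 15. The 7 ileum markers summed to 796 to 7745 CPM in PF and 994 to 9521 CPM in EtOH mice, with *Fgf15* at 0 in fat-1 PF mouse 4. The lowest sums were those of fat-1 PF mice 2 and 4, 1103 and 796 CPM, and fat-1 EtOH mice 3 and 4, 994 and 1958 CPM. In WT EtOH mouse 2 the ileum markers summed to 7853 CPM, within the 7820 to 7897 CPM of its group. Smooth muscle markers summed to 1343 to 1996 CPM in PF and 2407 to 4665 CPM in EtOH mice, and all 8 were called higher with EtOH, with a median of 1.10. All 7 fibroblast markers were called higher as well, with a median of 0.53, while the 11 markers of all epithelium gave 2 higher, 1 lower and a median near 0 (0.00). The samples are bulk tissue, in which fewer cells of a type and less RNA per cell cannot be told apart. Library numbers ran in order with the diet, so that library order and diet cannot be told apart either.

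In EtOH mice, transcripts of a retinol-binding protein, a retinol dehydrogenase and a retinaldehyde dehydrogenase were lower, and the carotenoid genes *Scarb1* and *Bco1* were not called. Over the mean of both genotypes, edgeR called 4 of the 10 members, *Rbp2*, *Rdh7* and *Aldh1a3* lower and *Isx* higher, where 35.9% of all tested genes were called. In fat-1 EtOH against fat-1 PF mice it called 3, the same *Rbp2*, *Rdh7* and *Aldh1a3*, all lower, where 37.4% of genes were called. No member was called in WT EtOH against WT PF mice, where 0.0796% of genes were called, in fat-1 against WT mice on EtOH (0.00724%), in fat-1 PF against WT PF mice (0%) or in the interaction of genotype and diet (0%). In these same comparisons edgeR gave an unadjusted p under 0.05 to 3, 0, 3 and 1 members. Of all 13811 genes, 1953, 671, 1758 and 1141 had such a p. DESeq2 and limma voom called 1 and 4 members in WT mice, where they called 1.86% and 20.3% of all genes, and 0 in the rest of these comparisons. The shares of members that edgeR called in the mean and in fat-1 mice were close to those of all genes. The median log2 fold change of the 10 was -0.14 in the mean over both genotypes against 0.04 for all genes, -0.32 against 0.05 in fat-1 mice and 0.04 against 0.01 in WT mice. Groups that did not overlap were counted too. They did not overlap for 3 members lower and 3 higher in WT mice (24.3% of all genes in both directions), for 3 lower in fat-1 mice (24%) and for 3 lower when all EtOH were set against all PF mice (7.79%). The comparisons of the mean and of each genotype share mice and do not stand independently of each other.

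**Figure D1:**
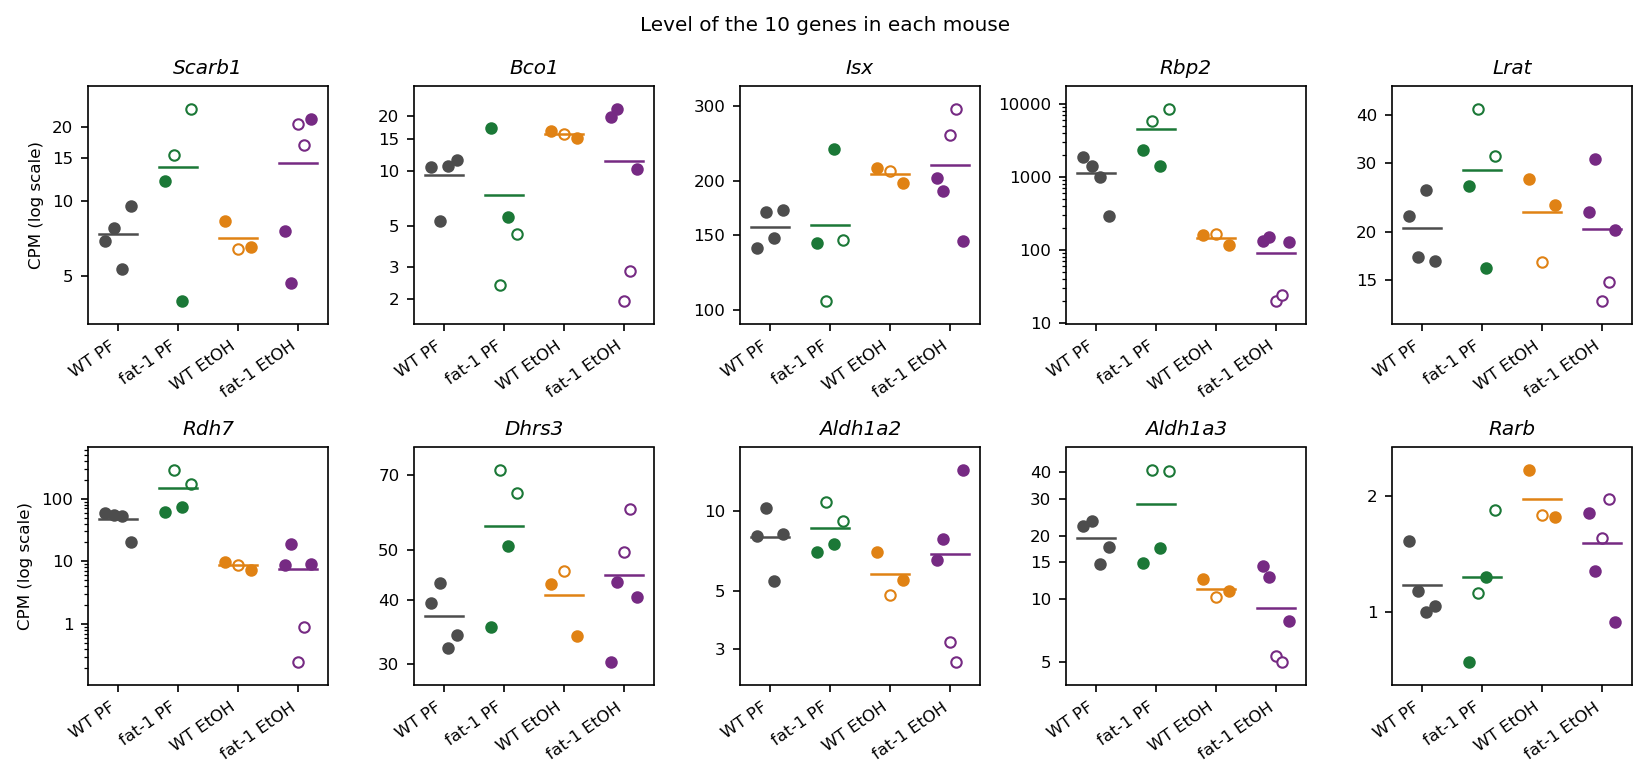
Level of each of the 10 genes in each mouse, in CPM on a log axis, by group. Each point is a mouse, the dash is the group mean, and open points are fat-1 PF mice 2 and 4, fat-1 EtOH mice 3 and 4 and WT EtOH mouse 2, the libraries that stand apart by region markers. *Rbp2* and *Rdh7* show no overlap of EtOH with PF mice, and the open points of the fat-1 mice sit at the extremes of both.

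Retinol binding showed the largest difference. *Rbp2* (chromosome 9, 98486115 to 98509781, + strand), whose product holds retinol and retinal in the enterocyte, measured 1875, 1402, 990.5 and 288 CPM in WT PF mice and 2303, 5749, 1402 and 8481 CPM in fat-1 PF mice. It measured 159, 166 and 118 CPM in WT EtOH mice and 134, 151, 20.4, 24.6 and 128 CPM in fat-1 EtOH mice. Every EtOH mouse was below every PF mouse, the 2 highest values belonged to fat-1 PF mice 2 and 4, and the 2 lowest to fat-1 EtOH mice 3 and 4. The level was 19.4-fold lower with EtOH in the mean over both genotypes, a log2 fold change of -4.28 ± 0.61 (SE, adjusted p = 0.00036 by edgeR). The change was -5.61 ± 0.78 in fat-1 mice (edgeR adjusted p = 0.000319). In WT mice the log2 fold change was -2.95 ± 0.85 with an edgeR adjusted p of 0.187 and an unadjusted p of 0.00367. DESeq2 and limma voom called *Rbp2* lower in WT mice as well, and a fit of only the groups compared did not. Without the 5 libraries that stand apart, a setting chosen after seeing the data that leaves 2 WT EtOH mice, fat-1 mice gave -3.74 and WT mice -3.03, both called by edgeR with adjusted p of 0.0161 and 0.0465. Without 3 large intestine marker libraries alone, fat-1 EtOH mice 3 and 4 and WT EtOH mouse 2, WT mice again gave -3.03, which was not called (edgeR adjusted p = 0.0981).

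Fat-1 PF mice had a mean of 4484 ± 3257 CPM of *Rbp2* (SD, n = 4) against 1139 ± 672 CPM in WT PF mice (SD, n = 4). The groups overlapped, and the log2 fold change of 1.98 ± 0.73 had an edgeR adjusted p of 0.271. The difference between the genotypes in the response to EtOH was -2.66 ± 1.01 on the log2 scale (adjusted p = 0.595 for the interaction by edgeR, unadjusted p = 0.0193). Both were smaller without libraries that stand apart. The PF difference was 0.70 without fat-1 PF mice 2 and 4 (edgeR adjusted p = 1), and the interaction was -0.71 without all 5 (edgeR adjusted p = 0.999). The summed proximal markers were also lowest in fat-1 EtOH mice 3 and 4 and highest in fat-1 PF mice 2 and 4. Over the 16 libraries the genes most like *Rbp2* in log2 CPM were *Leap2*, *H2-Q1* and *Adh6a*, with Pearson's r of 0.993, 0.99 and 0.99, given as a description since the libraries share region and diet. *Adh6a* is one of the proximal markers. The part of tissue region in the *Rbp2* difference was not tested.

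The dehydrogenase that turns retinol into retinal had the same pattern. *Rdh7* (chromosome 10, 127884028 to 127888817, - strand), a short-chain retinol dehydrogenase, measured 58.5, 55.8, 52.1 and 20.5 CPM in WT PF mice and 61.8, 282, 74.2 and 175 CPM in fat-1 PF mice. The EtOH mice measured 9.67, 8.82 and 7.23 CPM in the WT group and 8.84, 19.1, 0.246, 0.892 and 9.07 CPM in the fat-1 group. Again no EtOH mouse reached the lowest PF mouse, and fat-1 EtOH mouse 3 had only 3 counts. The log2 fold change was -3.36 ± 0.61 in the mean over both genotypes (edgeR adjusted p = 0.00127), which is 10.3-fold lower. In fat-1 mice it was -4.28 ± 0.78 (edgeR adjusted p = 0.00128) and in WT mice -2.45 ± 0.90 (edgeR adjusted p = 0.251). Without the 5 libraries that stand apart fat-1 mice gave -2.44 and WT mice -2.46, both called by edgeR with adjusted p of 0.0174 and 0.0418, while without the 3 large intestine marker libraries the change in WT mice was not called (edgeR adjusted p = 0.112). On the PF diet, all fat-1 mice lay above all WT mice in *Rdh7*, with a log2 fold change of 1.67 ± 0.76 (edgeR adjusted p = 0.381), which was 0.53 without fat-1 PF mice 2 and 4 (edgeR adjusted p = 1). Of its 75-base exon windows, 6.30% occur in related genes such as *Rdh1*, *Rdh19* and *Hsd17b6*, so that a small part of its reads could be split between genes. The log2 CPM of *Rdh7* and *Rbp2* correlated with r = 0.964 over the 16 libraries, and the genes most like *Rdh7* were *Pdcd6*, *Uap1l1* and *Acbd4* (0.991, 0.991 and 0.99).

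**Figure D2:**
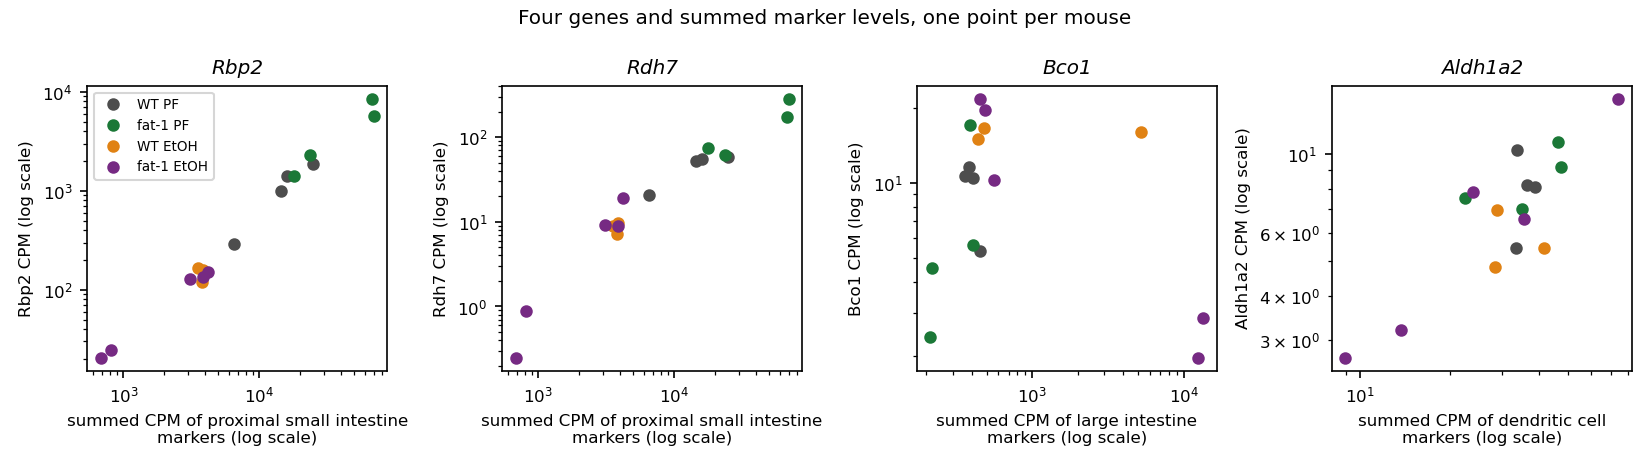
CPM of 4 genes against the summed CPM of a marker list, both on log axes, with 1 point per mouse and colours for the groups. *Rbp2* and *Rdh7* lie on a rising line with the proximal small intestine markers over the 16 mice. In the *Bco1* panel the 2 mice with the highest large intestine sums, fat-1 EtOH mice 3 and 4, have 1.97 and 2.85 CPM, while WT EtOH mouse 2, the next highest, has 16 CPM and fat-1 PF mouse 2, with the lowest sum, has 2.39 CPM. In the *Aldh1a2* panel the mice with the lowest and highest dendritic cell sums are also lowest and highest in *Aldh1a2*.

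Among the retinaldehyde dehydrogenases, which make retinoic acid, *Aldh1a3* was lower with EtOH and *Aldh1a2* was not called. *Aldh1a3* (chromosome 7, 66390890 to 66427517, - strand) measured 22.2, 23.5, 14.7 and 17.6 CPM in WT PF and 14.7, 40.8, 17.4 and 40.7 CPM in fat-1 PF mice. It measured 12.4, 10.2 and 10.9 CPM in WT EtOH and 14.3, 12.8, 5.33, 5.00 and 7.87 CPM in fat-1 EtOH mice. All EtOH mice lay below all PF mice, though 14.3 and 14.7 CPM nearly touched, and the highest values were those of fat-1 PF mice 2 and 4. The log2 fold change was -1.23 ± 0.28 in the mean over both genotypes (edgeR adjusted p = 0.00421), -1.65 ± 0.36 in fat-1 mice (edgeR adjusted p = 0.00339) and -0.80 ± 0.42 in WT mice (edgeR adjusted p = 0.396). In WT mice it was called lower in a fit of only the groups compared. Without fat-1 PF mice 2 and 4 the change in fat-1 mice was -0.82 and no longer called (edgeR adjusted p = 0.130), while the mean over both genotypes, -0.81, stayed called with an adjusted p of 0.0342. Of all genes, *P2rx1*, *Btnl2* and *Cnpy1* were most like *Aldh1a3* (r = 0.967, 0.959 and 0.954), and its r with *Rbp2* was 0.921.

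*Aldh1a2* (chromosome 9, 71215789 to 71296243, + strand), an enzyme of stromal and dendritic cells in the gut wall, measured 8.09, 10.3, 5.44 and 8.21 CPM in WT PF, 7.0, 10.8, 7.52 and 9.20 CPM in fat-1 PF, 6.98, 4.83 and 5.46 CPM in WT EtOH and 6.56, 7.82, 3.20, 2.68 and 14.3 CPM in fat-1 EtOH mice. The groups overlapped, and the fat-1 EtOH mice spanned the lowest and the highest value of all. Its log2 fold change was -0.40 in the mean over both genotypes, with a 95% interval from -1.02 to 0.23 (edgeR adjusted p = 0.305). In fat-1 mice the change of -0.32 turned to 0.18 without fat-1 EtOH mice 3 and 4, and was -0.75 without fat-1 EtOH mouse 5 (edgeR adjusted p = 0.0742). The 6 dendritic cell markers summed to 74.0 CPM in fat-1 EtOH mouse 5, where *Aldh1a2* was highest, and to 13.8 and 8.92 CPM in fat-1 EtOH mice 3 and 4, where it was lowest, against 22.6 to 47.6 CPM in the other 13 mice, with none of the 6 at 0 in any library. The 8 B-cell follicle markers summed to 521 CPM in fat-1 EtOH mouse 5, against at most 106 CPM elsewhere. That mouse also had the highest sums of the fibroblast and adipocyte markers, 514 and 619 CPM. In fat-1 EtOH mice 3 and 4 the fibroblast sums were 414 and 324 CPM. The genes most like *Aldh1a2* were *Cd300a*, *Dnase1l3* and *Csf1r* (r = 0.958, 0.933 and 0.929), genes known from myeloid cells. The part of any of these cell types in the spread of *Aldh1a2* was not tested.

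The regulator *Isx* (chromosome 8, 74873173 to 74893506, + strand) was the member called higher. It measured 139, 169, 147 and 171 CPM in WT PF, 144, 105, 238 and 145 CPM in fat-1 PF, 215, 211 and 198 CPM in WT EtOH and 203, 190, 257, 295 and 145 CPM in fat-1 EtOH mice. All WT EtOH mice lay above all WT PF mice, while in fat-1 mice the groups overlapped. In the mean over both genotypes the log2 fold change was 0.44 ± 0.16 (edgeR adjusted p = 0.0494), which is 1.35-fold higher, just inside the threshold. It was 0.41 ± 0.25 in WT mice (edgeR adjusted p = 0.458) and 0.47 ± 0.22 in fat-1 mice (edgeR adjusted p = 0.105). In fat-1 mice it was called with upper-quartile normalization (adjusted p = 0.0425) and without fat-1 PF mouse 3 or fat-1 EtOH mouse 5, while without the 5 libraries that stand apart it was at -0.074 (edgeR adjusted p = 0.824). The call was lost in 13 of the 16 analyses that left out 1 mouse, and remained without fat-1 PF mouse 3, fat-1 EtOH mouse 2 or fat-1 EtOH mouse 5. It was also lost with DESeq2-type size factors (adjusted p = 0.0516) and with the looser filter (adjusted p = 0.0507). Without fat-1 EtOH mice 3 and 4, which had the highest levels, the change was 0.31 (edgeR adjusted p = 0.122). Over the 16 libraries *Isx* ran against *Rbp2*, with r = -0.765, and *Kifap3*, *Slc37a1* and *Selenom* were most like it (r = 0.932, 0.914 and 0.903).

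The carotenoid genes that ISX is known to lower were not called. *Bco1* (chromosome 8, 117095854 to 117133720, + strand), the enzyme that cuts beta-carotene, measured 10.5, 5.32, 10.7 and 11.5 CPM in WT PF and 17.2, 2.39, 5.60 and 4.54 CPM in fat-1 PF mice. It measured 16.6, 16 and 15.0 CPM in WT EtOH and 19.6, 21.8, 1.97, 2.85 and 10.3 CPM in fat-1 EtOH mice. WT EtOH mice lay above all WT PF mice, and the low values of the fat-1 EtOH group were those of mice 3 and 4. The log2 fold change was 0.66 with a 95% interval from -0.38 to 1.70 in the mean over both genotypes (edgeR adjusted p = 0.300), 0.74 ± 0.72 in WT mice (edgeR adjusted p = 0.672) and 0.58 ± 0.65 in fat-1 mice (edgeR adjusted p = 0.496). Without fat-1 EtOH mice 3 and 4 the mean over both genotypes was 0.97 and called (edgeR adjusted p = 0.0482), and without WT EtOH mouse 2 as well it was 0.97 with an adjusted p of 0.0774. In fat-1 mice the change was 0.20 without fat-1 EtOH mouse 2, 1.44 without fat-1 PF mouse 1 and -0.014 without fat-1 PF mice 2 and 4, none of them called. *Mapk4* and *Dkk2* were among the genes most like it (r = 0.933 and 0.920).

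*Scarb1* (chromosome 5, 125277087 to 125341094, - strand), the uptake receptor, measured 6.88, 7.81, 5.33 and 9.56 CPM in WT PF, 12.1, 15.4, 3.96 and 23.7 CPM in fat-1 PF, 8.33, 6.40 and 6.55 CPM in WT EtOH and 7.60, 4.68, 20.7, 17 and 21.6 CPM in fat-1 EtOH mice. The WT groups lay within 5.33 to 9.56 CPM, and the fat-1 mice were spread on both sides of that range. Its log2 fold change with EtOH was 0.00 in the mean over both genotypes, with a 95% interval from -0.76 to 0.75 (edgeR adjusted p = 0.994). Fat-1 mice averaged 13.8 ± 8.17 CPM on PF (SD, n = 4) and 14.3 ± 7.73 CPM on EtOH (SD, n = 5), WT mice 7.4 ± 1.77 (SD, n = 4) and 7.09 ± 1.07 CPM (SD, n = 3), and neither difference between genotypes was called, with edgeR adjusted p of 0.479 and 0.757.

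The members for esterification and retinal reduction, *Lrat* and *Dhrs3*, were not called. *Lrat* (chromosome 3, 82892579 to 82903973, - strand), which makes retinyl esters, ranged from 13.3 to 41.4 CPM over all mice, with group means of 20.4 ± 4.20 (WT PF, SD, n = 4), 28.8 ± 10.5 (fat-1 PF, SD, n = 4), 22.5 ± 5.41 (WT EtOH, SD, n = 3) and 20.3 ± 6.97 CPM (fat-1 EtOH, SD, n = 5). Its lowest values, 13.3 and 14.8 CPM, were those of fat-1 EtOH mice 3 and 4. The log2 fold change with EtOH was -0.18 (95% interval -0.63 to 0.27, edgeR adjusted p = 0.523). *Dhrs3* (chromosome 4, 144892827 to 144928209, + strand), a retinal reductase that retinoic acid induces in many tissues, ranged from 30.3 to 71.6 CPM, and its log2 fold change with EtOH was -0.09 (95% interval -0.42 to 0.24, edgeR adjusted p = 0.673). Fat-1 PF mice averaged 55.7 ± 15.9 CPM of *Dhrs3* (SD, n = 4) and WT PF mice 37.3 ± 4.95 CPM (SD, n = 4), which is a difference of 0.58 ± 0.22 on the log2 scale with an edgeR adjusted p of 0.278, and of 0.21 without fat-1 PF mice 2 and 4 (edgeR adjusted p = 1). *Rdh11* was among the 3 genes most like *Lrat* (r = 0.865, after *Pcnx* and *Nadk2*), and *Ing4*, *Isoc2a* and *Zbtb42* were most like *Dhrs3* (r = 0.922, 0.914 and 0.905).

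The receptor *Rarb* (chromosome 14, 16430839 to 16819156, - strand), itself a classical retinoic acid target, was the scarcest member. It had 7 to 26 counts per library, or 1.53, 1.13, 1.00 and 1.04 CPM in WT PF, 0.742, 1.12, 1.23 and 1.84 CPM in fat-1 PF, 2.33, 1.78 and 1.76 CPM in WT EtOH and 1.81, 1.28, 1.56, 1.96 and 0.941 CPM in fat-1 EtOH mice. The 3 WT EtOH mice lay above all WT PF mice, and the fat-1 groups overlapped. The log2 fold change was 0.51 ± 0.22 in the mean over both genotypes (edgeR adjusted p = 0.0781) and 0.73 ± 0.32 in WT mice (edgeR adjusted p = 0.323). In the mean it was called with upper-quartile normalization (adjusted p = 0.0397) and without fat-1 PF mouse 4 or fat-1 EtOH mouse 5. Of its 5265 exon bases, 1793 overlap *Top2b* on the opposite strand, and as the use of strand in the counting is not given in the sources used here, reads of the 2 genes may not be told apart. Of the 75-base windows of its exons, 52.1% occur in *Top2b* as well. *Ak1*, *Pbx3* and *Tmprss5* were most like *Rarb* (r = 0.880, 0.838 and 0.782).

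**Figure D3:**
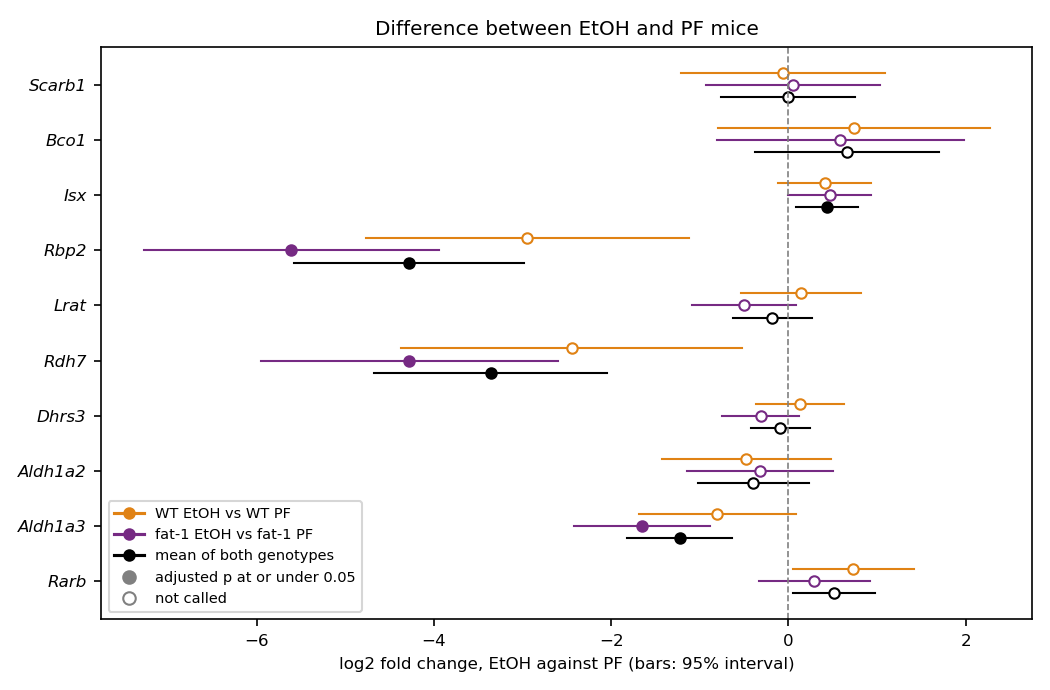
Log2 fold change of EtOH against PF mice with its 95% interval for the 10 genes, in WT mice, in fat-1 mice and in the mean over both genotypes. Filled points are called by edgeR at an adjusted p of 0.05 or less. The filled points are *Rbp2*, *Rdh7* and *Aldh1a3* below 0 and *Isx*, at 0.44, above 0.

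Set against each other per exon length, the members spanned a wide range of levels. The length joins the exons of all annotated transcripts, so that it can exceed that of any 1 transcript and lower the value. For *Scarb1* it was 8500 bases, while its longest transcript held 3019 windows of 75 bases. In WT PF mice the means were 1184 ± 699 CPM per kb for *Rbp2*, 87.3 ± 8.83 for *Isx*, 27.8 ± 10.5 for *Rdh7* and 12.7 ± 1.69 for *Dhrs3* (SD, n = 4 each). *Aldh1a3*, *Lrat*, *Bco1* and *Aldh1a2* followed with 4.22 ± 0.89, 3.82 ± 0.79, 3.74 ± 1.11 and 3.54 ± 0.88 CPM per kb (SD, n = 4 each), which do not differ beyond their spread, and *Scarb1* and *Rarb* came last with 0.87 ± 0.21 and 0.22 ± 0.05 CPM per kb. On EtOH the level of *Rbp2* in WT mice, 154 ± 26.5 CPM per kb (SD, n = 3), came near that of *Isx*, 116 ± 5.03 (SD, n = 3), and in fat-1 EtOH mice the means were 95.3 ± 66.2 and 122 ± 32.9 CPM per kb (SD, n = 5 each), which do not differ beyond their spread. *Rdh7* was at 5.11 ± 0.74 CPM per kb in WT EtOH mice (SD, n = 3), below *Dhrs3* and *Bco1* at 14 ± 2.07 and 6.23 ± 0.30.

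**Figure D4:**
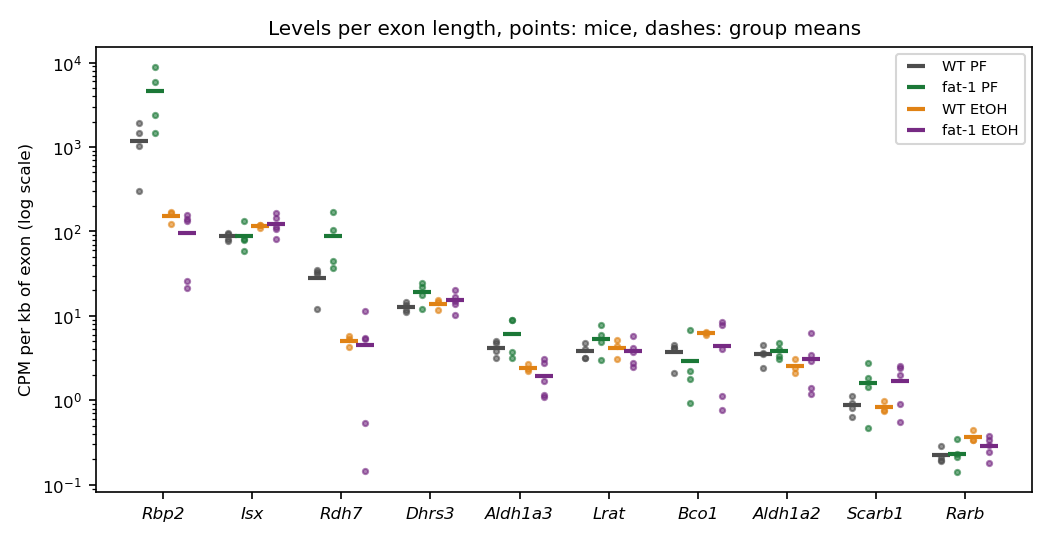
CPM per kb of exon for the 10 genes on a log axis, ordered by the mean in WT PF mice. Points are mice, dashes are group means and colours are groups. The group mean of *Rbp2* ran from 4661 CPM per kb in fat-1 PF to 95.3 in fat-1 EtOH mice.

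The remaining genes of the pathway were taken from a list of 65 other symbols, of which 63 were matched and 47 tested. In the mean over both genotypes edgeR called 19 of the 47, with 7 higher and 12 lower and a median log2 fold change of -0.06, against 0.04 for all genes and 35.9% of all genes called. With upper-quartile normalization the split was 10 higher and 11 lower. In fat-1 mice 20 were called, 7 higher and 13 lower (37.4% of all genes). Without fat-1 PF mice 2 and 4, 10 of 49 tested were called in fat-1 mice, 4 higher and 6 lower (13.9% of all genes). In WT mice edgeR called none of the 47 (0.0796% of all genes). It gave an unadjusted p under 0.05 to 6 of them there, and to 1953 of all 13811 genes. In WT mice DESeq2 called 2 (1.86% of all genes) and limma voom 11 (20.3% of all genes). In each role, the 3 genes with the largest change in the mean over both genotypes are named. The counts called by role belong to that comparison, in which 35.9% of all genes were called.

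In uptake and hydrolysis, 3 of 5 tested genes were called lower and none higher (35.9% of all genes called). *Plb1*, a brush-border phospholipase that also hydrolyses retinyl esters, measured 309 to 880 CPM in WT PF and 1.52 to 6.22 CPM in WT EtOH mice, and its log2 fold change was -7.11 (edgeR adjusted p = 0.00118). The 2 fat-1 PF mice with the highest proximal marker sums were low in *Plb1*, with 8.98 and 0.614 CPM, against 389 and 911 CPM in the other 2, and fat-1 EtOH mice had 0.164 to 5.70 CPM. *Bco2*, the mitochondrial carotenoid oxygenase, fell by 1.80 on the log2 scale (edgeR adjusted p = 0.00077) and *Lipe*, hormone-sensitive lipase, by 1.10 (edgeR adjusted p = 0.0039). In esterification, *Dgat1*, an acyltransferase that can esterify retinol, fell by 1.56 (edgeR adjusted p = 0.00782), and *Awat2* was at -0.06 and not called.

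Of 17 tested retinol and retinal dehydrogenases 7 were called lower and 2 higher (35.9% of all genes called). *Adh4*, an alcohol dehydrogenase that oxidises retinol, was called lower (edgeR adjusted p = 0.000366). It measured 0.208 to 5.36 CPM in WT PF and 2.05 to 28.5 CPM in fat-1 PF mice, and every EtOH mouse had 3 counts or fewer, so that no fold is given. *Adh1*, the liver-type class I alcohol dehydrogenase, and *Rdh16f2* fell by 2.69 and 2.41 (edgeR adjusted p = 0.00349 and 0.00709). Without fat-1 PF mice 2 and 4 *Adh1* fell by 1.57 and was still called. *Rdh16f2* was at -1.28 and not called without the 5 libraries that stand apart, and its call was also lost without the 3 large intestine marker libraries and fat-1 EtOH mouse 5. Of 2 tested retinaldehyde dehydrogenases, *Aldh1a7* fell by 0.61 (edgeR adjusted p = 0.00536) and *Aldh1a1* was at 0.32 with an adjusted p of 0.209. In retinoic acid clearance, *Cyp2s1* rose by 0.25 (edgeR adjusted p = 0.0358, a call lost in 8 of the 16 analyses without 1 mouse), *Cyp26b1* was at -0.09 (adjusted p = 0.832), and *Cyp26a1* and *Cyp26c1*, the other enzymes of that family, were too low to be tested.

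Among 7 tested binding and transport proteins 2 were called higher, of which *Stra6l*, a retinol transporter, rose by 0.90 (edgeR adjusted p = 0.00329), while *Rbp7* and *Stra6* were at -0.83 and 0.64 and not called. *Stra6* was at 0.11 without fat-1 EtOH mouse 5, the mouse with its highest level, and *Rbp7* was called lower without fat-1 EtOH mice 3 and 4. Among 4 tested receptors, *Rarg* rose by 0.81 (edgeR adjusted p = 0.00717), a change that was 0.44 and not called without the 5 libraries that stand apart. *Rxra* and *Rxrb* were at -0.21 and -0.19 with edgeR adjusted p of 0.0516 and 0.0547, and both were called lower by DESeq2 and limma voom and in 2 and 4 of the 16 analyses without 1 mouse. Of 8 tested retinoic acid-responsive genes 1 was called (35.9% of all genes called), *Rai14*, with a rise of 0.60 (edgeR adjusted p = 0.000608). *Rarres1* and *Itga4*, an integrin subunit of gut-homing lymphocytes, were at -0.73 and 0.62 with adjusted p of 0.064 and 0.259. *Rarres1* was called without fat-1 PF mouse 3 or fat-1 EtOH mouse 1. *Itga4* was at 0.12 without fat-1 EtOH mouse 5, the mouse with its highest level.

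**Figure D5:**
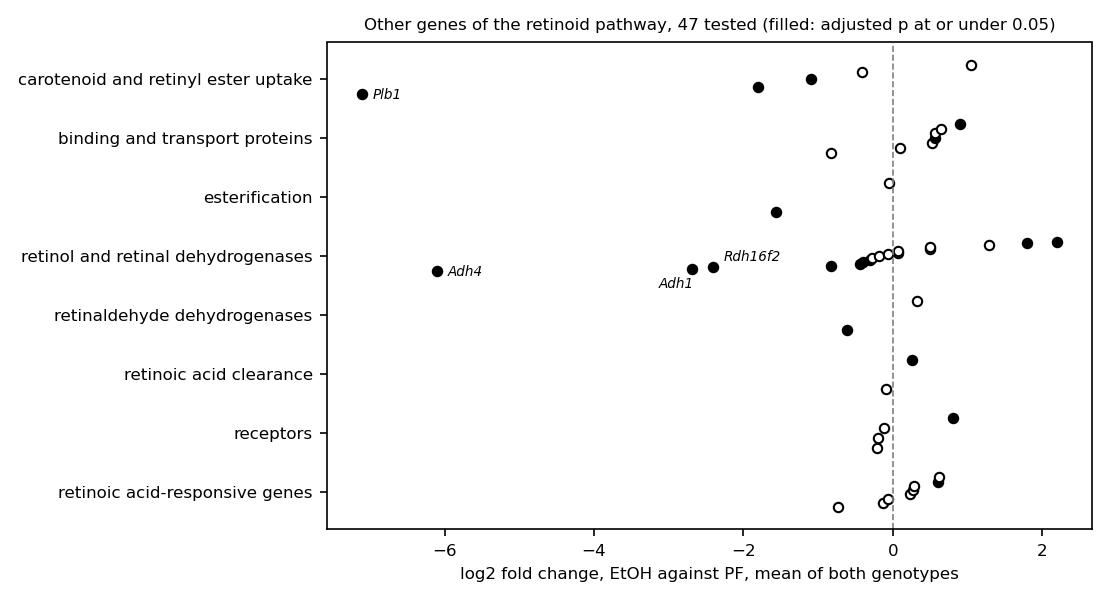
Log2 fold change of EtOH against PF in the mean over both genotypes for the 47 other tested genes of the retinoid pathway, by role. Each point is a gene and filled points are called by edgeR at an adjusted p of 0.05 or less. *Plb1* lies farthest left at -7.11, and the position of *Adh4* depends on the prior count of the fit because EtOH mice had 3 counts or fewer.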

How the data were processed

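The authors aligned stranded poly(A) RNA-seq reads with tophat2 to mm10 and deposited raw counts of reads per Ensembl gene made with htseq, with no normalization. The counting settings, strand among them, are not given in the sources used here. Symbols, positions and exon lengths came from GENCODE M21 (GRCm38, the build of mm10), promoters from RefSeq.

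Counts of all 16 libraries were fitted together with edgeR 4.0.16 in R 4.3.3: filterByExpr (minimum count 10), TMM scaling, 1 mean per group and robust quasi-likelihood tests, with Benjamini-Hochberg adjustment over 13811 genes. A gene was called at an adjusted p of 0.05 or less, and 95% intervals are those of the fit. The paper used cuffdiff2, which needs alignments. With it, the paper lists *Rbp2* as lower with EtOH in WT mice only, and *Rdh7* as lower in both genotypes. Here edgeR called both in fat-1 mice and neither in WT mice. Log2 CPM for correlations had a prior count of 2. Totals of 8422645 to 11438539 reads set the precision. Replicates are separate mice, and their libraries differed by more than sampling noise.

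All 10 members are named, with at most 3 genes per role of the wider list, those with the largest change in the mean over both genotypes, and the 3 genes most like each member (1 such gene is not reported here). The members and lists were chosen with earlier results of these data known. Of the wider list, *Rbp5* and *Rdh18-ps* were unmatched. The marker lists of ileum, large intestine, proximal small intestine, all epithelium, smooth muscle, fibroblast, dendritic cell and B-cell follicle are reported above. The 6 mesothelium and 5 adipocyte markers gave 1 and 0 called with EtOH in the mean over both genotypes (medians 0.18 and 0.52, 35.9% of all genes called).

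Alternatives were DESeq2 1.42.0, limma 3.58.1 voom with quality weights, DESeq2-type and upper-quartile normalization, a looser filter (at least 1 count in all) and a stricter one (at least 10 in every mouse), a fit of the compared groups alone, a block for the replicate number, each mouse left out, and libraries that stand apart left out. Figures were drawn with matplotlib 3.10.9.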

Additional observations from a re-analysis of the deposited data

Results flagged for a closer look

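In 30 groups of 4 or 5 mice, the gap of the highest or lowest mouse to its neighbour was compared with Dixon's 95% critical value, which chance exceeds in about 1 of 20 groups. It was exceeded in 2. WT PF mouse 2 had 5.32 CPM of *Bco1*, with the next mouse at 10.5 CPM. WT PF mouse 4 had 20.5 CPM of *Rdh7*, with the next at 52.1 CPM. This mouse also had the lowest summed proximal markers of the PF mice, 6494 CPM, and their part in its *Rdh7* level was not tested.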

How the results depend on the processing

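The calls of *Rbp2* as lower in fat-1 mice and in the mean over both genotypes were kept under each alternative run, and those of *Rdh7* under each except the stricter filter, which leaves *Rdh7* out of the genes tested. In WT mice, members called were 0 in edgeR, 1 with DESeq2 (*Rbp2*, 1.86% of all genes called) and 4 with limma voom (*Isx*, *Rarb*, *Rbp2* and *Rdh7*, 20.3%). With only the groups compared they were 3 (*Aldh1a3*, *Isx* and *Rdh7*, 8.32%). They were 1 without fat-1 EtOH mice 3 and 4 (2.01%), 2 without these and fat-1 PF mice 2 and 4 (5.68%), and 2 without the 5 libraries that stand apart (3.41%). They were 0 without the 3 large intestine marker libraries, without these and fat-1 EtOH mouse 5, and without fat-1 PF mice 2 and 4. In fat-1 mice the replicate block, whose numbers do not pair the mice (mean correlation of deviations -0.0225 over 21 pairs with the same number and 0.00703 over 74 others), gave 5 members in place of 3 (34.4% of all genes), *Isx* among them, and 6 in place of 4 (35% of all genes), *Rarb* among them, in the mean over both genotypes. The block also called *Aldh1a2* lower, at -0.84 (adjusted p = 0.0412) in fat-1 mice and -0.66 (adjusted p = 0.0342) in the mean. Leaving out 1 mouse at a time gave 3 to 5 in the mean over both genotypes, 3 to 4 in fat-1 mice and 0 in the other comparisons. Without 3 large intestine marker libraries and the follicle-rich fat-1 EtOH mouse 5, a setting chosen after seeing the data, *Aldh1a3* was not called in fat-1 mice (adjusted p = 0.0997), nor without the 5 libraries that stand apart (adjusted p = 0.248) or without the 4 of them that are fat-1 mice (adjusted p = 0.236).

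Directions turned mostly for small, uncalled changes, and the cause was not tested. Upper-quartile normalization, which moved the median of all genes from 0.04 to 0.14 in the mean over both genotypes and from 0.05 to 0.20 in fat-1 mice, gave log2 fold changes of 0.10 for *Scarb1*, 0.014 for *Dhrs3*, 0.043 for *Awat2* and 0.0082 for *Cyp26b1*. *Scarb1* was at 0.0015 and 0.024 with the looser and stricter filters, and *Scarb1* and *Awat2* at 0.022 and 0.034 with the replicate block. Limma voom gave 0.11 for *Cyp26b1*. Without fat-1 EtOH mice 3 and 4, *Cyp26b1* was at 0.089 and *Aldh1a2* in fat-1 mice at 0.18, and without WT EtOH mouse 2 as well *Cyp26b1* was at 0.22, *Lrat* at 0.058, *Aldh1a1* at -0.040 and *Aldh1a2* in fat-1 mice at 0.18. Without fat-1 EtOH mouse 5 in addition, *Cyp26b1* was at 0.31 and *Lrat* at 0.12. Without fat-1 PF mice 2 and 4, *Scarb1* was at 0.38, *Cyp26b1* at 0.30, *Dhrs3* at 0.095, *Lrat* at 0.045 and *Bco1* in fat-1 mice at -0.014. Without fat-1 PF mice 2 and 4 and fat-1 EtOH mice 3 and 4, *Scarb1* was at 0.22, *Cyp26b1* at 0.47, *Lrat* at 0.19, *Aldh1a2* in fat-1 mice at 0.41 and *Isx* in fat-1 mice at -0.074. Without WT EtOH mouse 2 in addition they were at 0.25, 0.60, 0.27, 0.41 and -0.074, and *Aldh1a2* in the mean was at 0.027. Without the 3 large intestine marker libraries and fat-1 EtOH mouse 5, *Scarb1* was at -0.57. With 1 mouse left out, *Scarb1* ran from -0.15 to 0.20, *Cyp26b1* from -0.33 to 0.12 and *Awat2* from -0.11 to 0.044. At these depths *Rarb*, with 26 counts at most, limits what can be told.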
